A study of Mus musculus with 6 samples.

Results

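Solute carriers move ions, sugars, amino acids and metals across cell membranes, and the genes described here belong to 10 of their families: Slc4a, Slc5a, Slc6a, Slc7a, Slc8a, Slc9a, Slc22a, Slc26a, Slc38a and Slc39a. A gene was a member if its array annotation gave a single symbol made of one of these family names and a number. The rule left out 4 genes, Slc26a4, Slc7a5, Slc39a10 and Slc39a14. It found 113 genes among the 18193 genes with a single symbol, and each was represented by its brightest probe set. The tissue was cochlear lateral wall dissected from CBA/CaJ mice, with 3 samples from young adults of 1 to 3 months and 3 from old mice of 1.5 years, bred in a low-noise environment, both sexes included. No treatment, transgene or deletion is named for either group. The labels do not say whether a sample was 1 animal or a pool, so the p-values rest only on how far these samples spread, which may be technical. The comparison asked which carrier genes differ with age in this tissue.

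The lateral wall holds the stria vascularis, which secretes the potassium-rich endolymph and builds the endocochlear potential, and the spiral ligament, whose fibrocytes return potassium to it. Bicarbonate carriers (Slc4a), anion exchangers (Slc26a) and sodium/proton exchangers (Slc9a) set the pH and salt content of cells and fluids. Sodium/calcium exchangers (Slc8a) remove calcium. The Slc6a, Slc7a and Slc38a families carry neurotransmitters and amino acids, Slc5a carriers couple sugars and other solutes to sodium, Slc22a carriers move organic cations, anions and carnitine, and Slc39a proteins bring zinc and other metals into the cytosol.

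Of the 113 genes, 2 rose and 5 fell in old tissue, and 106 did not pass. The organic cation carrier Slc22a2 and the sulfate carrier Slc26a2 rose. The bicarbonate carriers Slc4a1, Slc4a4 and Slc4a10 and the amino acid carriers Slc38a4 and Slc7a2 fell. Values are log2 signals, differences are old minus young, and a call is an adjusted p under 0.05 by limma with Benjamini-Hochberg adjustment over all 45037 probe sets. The share called, 6.19%, was near that of all genes, 4.78% (2.45% higher and 2.33% lower). Counts called in families and gene lists below are to be read against these shares. In a family of 9 genes, such as Slc26a, a single call is already 11.1%. Among genes brighter than the median probe set, at 6.28, 5 of 59 members (8.47%) and 6.38% of all genes were called. The median difference was 0.01 over the members, 0.03 over all genes and 0.02 over 192 genes of other Slc families, of which 5 rose and 8 fell. The 3 old values lay wholly above the young ones for 13 members and wholly below for 12, together 22.1% of members, where 26.7% of all genes had such separate groups (17.0% above and 9.70% below). Before adjustment, 16 members and 20.7% of all genes had a limma p under 0.05, and the counts of unadjusted p given for families and marker lists are to be read against that share. For 93 members (82.3%, against 81.4% of all genes) the 95% interval of the difference lay within 0.5 of 0. A difference smaller than 0.25 in either direction was found for 99 members (87.6%, against 81.7% of all genes). In a bulk sample, fewer cells of a type and less RNA per cell cannot be told apart.

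**Figure D1:**
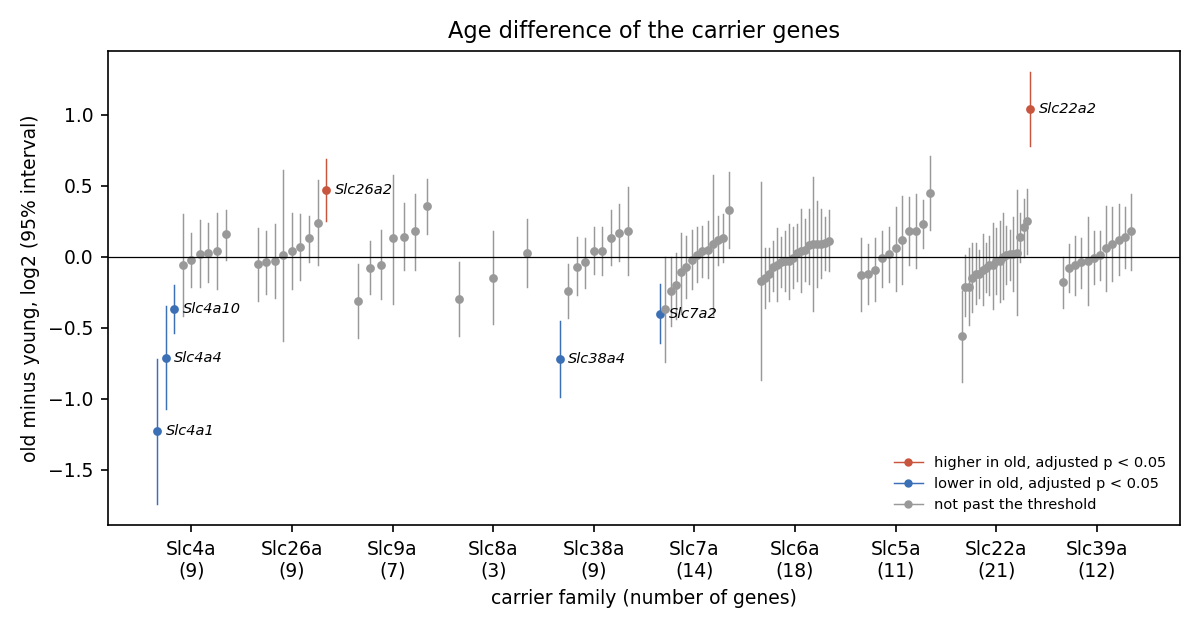
Old minus young difference in log2 signal (vertical axis) of each of the 113 carrier genes, ordered by difference within its family, with the 95% interval from limma as a bar. The 7 genes past adjusted p 0.05 are coloured and named, and most points lie within 0.25 of 0.

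The arrays had medians of 6.26 to 6.30, and markers of the tissue were bright. The mean log2 level of 5 strial marginal cell markers ran from 12.20 to 12.35 at the young age and from 12.40 to 12.55 at the old age, and that of 4 spiral ligament fibrocyte markers from 13.40 to 13.41 and from 13.33 to 13.37. Of these 9 genes, 0 were called, and 3 had a limma p under 0.05 before adjustment. Marrow myeloid markers, of which 6 of 7 fell, averaged 7.80 to 8.36 on young arrays. On old arrays they averaged 6.47 to 7.22. Bone markers averaged 8.14 to 8.63 and 7.03 to 7.82, and 3 of 7 fell. Osteoclast markers averaged 5.88 to 6.06 on young arrays and 6.36 to 6.54 on old ones. Of these 4, Atp6v0d2 (1.73) and Acp5 (0.90) rose, while Ctsk (-0.37) and Calcr (-0.23) did not pass. Macrophage markers averaged 8.54 to 8.71 and 8.82 to 8.96. Of these 6, Lyz2 (1.56) and Cd68 (1.16) rose, Cd14 (-1.03) fell and 3 did not pass. For Gapdh, a sign of RNA integrity, the 3′ control probe set exceeded the 5′ one by 1.07 to 1.25 on young arrays. On old arrays the excess was 1.26 to 1.45. The same excess for Actb overlapped between the ages, from 1.46 to 1.60 on young and from 1.39 to 1.84 on old arrays. Young replicate 2 stood apart: Xist, transcribed in female cells, was at 6.06 there and between 11.95 and 12.65 on the other arrays. Without it, 4 members rose and 5 fell, against 8.35% of all genes called. The part of these differences in the results below was not tested.

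Slc22a2 encodes the organic cation transporter OCT2, a carrier known from kidney for creatinine, metformin and cisplatin. Its signal was 7.20, 7.12 and 7.19 on the young arrays and 8.36, 7.95 and 8.32 on the old arrays. Every old array was above every young one, and the young values lay close together. The mean rose from 7.17 ± 0.04 (SD, n = 3) to 8.21 ± 0.23 (SD, n = 3), a difference of 1.04 ± 0.12 (SE) or 2.06-fold, with a limma adjusted p of 0.00341. The gene had 1 probe set. It was the only member called with each of the 6 arrays left out in turn, with differences of 0.97 to 1.17 and adjusted p of 0.00326 to 0.0254. Of all members, Slc22a2 and Slc4a1 alone had a difference larger than 1 in size by their brightest probe set.

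**Figure D2:**
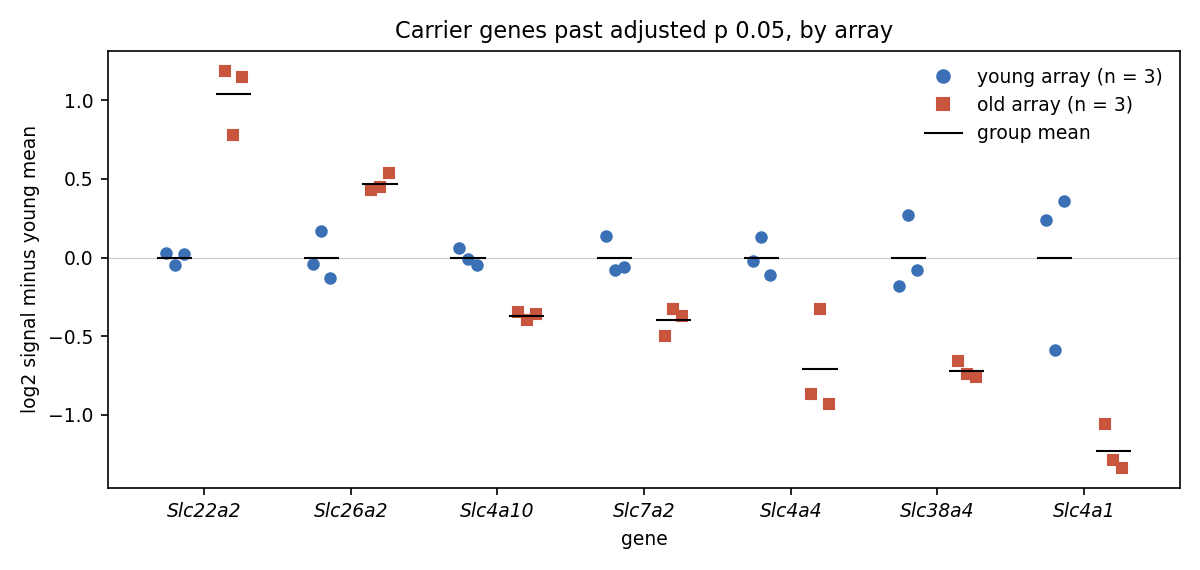
Log2 signal of the 7 called carrier genes on each of the 6 arrays, given as the distance from the young mean of that gene (circles, young; squares, old; bars, group means). For each of the 7 genes the young and old arrays do not overlap, Slc22a2 and Slc26a2 are higher in old tissue and the other 5 are lower, with young replicate 2 of Slc4a1 nearest to the old arrays among its young values.

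Among the other Slc22a genes 0 of 20 passed, and 2 had a limma p under 0.05 before adjustment. Slc22a4, the carrier of the antioxidant ergothioneine, was at 9.05, 9.29 and 9.38 in young and 9.51, 9.42 and 9.54 in old tissue. Its groups did not overlap, and its difference of 0.25 ± 0.10 did not pass (limma adjusted p = 0.218). The carnitine carrier Slc22a5 had a difference of -0.21 ± 0.09 with groups that also did not overlap (limma adjusted p = 0.281). Slc22a21, a related carnitine carrier of the mouse, was at 5.46, 5.27 and 5.83 against 4.85, 5.04 and 4.99. Its difference of -0.56 ± 0.14 lay just outside the threshold (limma adjusted p = 0.0585), and its adjusted p was 0.0215 without young replicate 2. Only 1 of the 6 fits that left out an array called Slc22a21, with limma adjusted p of up to 0.171. The family median was -0.03, and 4 of its 21 genes had separate groups in the upward and 3 in the downward direction. Of all genes, 17.0% and 9.70% had such groups, so these counts do not set the family apart.

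Of 9 Slc4a genes, 3 fell and 0 rose, where 2.33% of all genes fell and 2.45% rose. Slc4a1, the band 3 anion exchanger of red blood cells, had young signals of 6.92, 6.09 and 7.04 and old signals of 5.62, 5.39 and 5.34. Young replicate 2 was lowest among the young and still above the old arrays. The mean fell from 6.68 ± 0.52 to 5.45 ± 0.15, a difference of -1.23 ± 0.22 (limma adjusted p = 0.0219). A second probe set, of the type that can bind related sequences, was at 6.32, 6.02 and 7.50 in young and 4.62, 4.85 and 4.75 in old tissue, a difference of -1.87 ± 0.32 (limma adjusted p = 0.0176). The third probe set of Slc4a1 had a difference of -0.12 and did not pass. Of 8 measured erythroid markers 0 were called by limma, 2 had an unadjusted p under 0.05, and their mean level lay between 5.88 and 6.13 at the young age and between 5.85 and 5.93 at the old age. Groups were separate for 4 of the 8 markers, where 26.7% of all genes had such groups. These were Alas2, the first enzyme of heme synthesis in red cells (-0.37), Rhag (-0.37), Ermap (-0.28) and Slc25a37 (0.16). Groups overlapped for Klf1 (-0.21), the red cell ankyrin Ank1 (-0.03), Hba-a1 (-0.01) and Epb42 (0.02). The list held 11 markers, of which only these 8 were measured. Hba-a1, Epb42 and Rhag had group means of 3.55 to 4.44, well under the median probe set at 6.28. Small differences at such signals say little about red cell content. The fall of the marrow myeloid and bone markers given above moved in the same direction as Slc4a1, and its part in that result was not tested.

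Slc4a10, a sodium-driven bicarbonate carrier, had young signals of 13.38, 13.31 and 13.27. Its old signals were 12.97, 12.92 and 12.96. The arrays of each age lay within 0.11 of each other or closer, and the groups were well apart. The difference was -0.37 ± 0.08, or 1.29-fold lower, from a single probe set (limma adjusted p = 0.0316). The electrogenic sodium bicarbonate cotransporter Slc4a4 was at 7.08, 7.23 and 6.99 in young and 6.23, 6.77 and 6.17 in old tissue. Old replicate 2 was the old array nearest to the young ones. The difference of -0.71 ± 0.16 passed (limma adjusted p = 0.0405), and without old replicate 2 it was -0.90 (limma adjusted p = 0.00845). None of the 4 other probe sets of Slc4a4 passed, with differences of -0.22 to -0.03.

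The other 6 Slc4a genes did not pass. Slc4a11, a membrane protein of spiral ligament fibrocytes whose loss causes corneal dystrophy with deafness, was at 13.70, 13.51 and 13.57 in young and 13.52, 13.58 and 13.63 in old tissue. These values overlapped, and the 95% interval of the difference ran from -0.21 to 0.17. The anion exchanger Slc4a2 had a difference of 0.16 ± 0.08 (limma adjusted p = 0.321), with separate groups. For the anion exchanger Slc4a3 the difference was -0.06, with an interval of -0.42 to 0.30. A dimmer probe set of Slc4a3 had separate groups and a difference of 0.24 ± 0.09 that did not pass (limma adjusted p = 0.185).

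Among 9 Slc26a anion exchangers, Slc26a2 rose and 0 fell. Slc26a2 takes up sulfate for the sulfation of proteoglycans, and its defects cause chondrodysplasias. It was at 8.54, 8.75 and 8.45 in young and 9.01, 9.03 and 9.12 in old tissue. All old arrays lay above all young ones, and the difference was 0.47 ± 0.10, or 1.39-fold (limma adjusted p = 0.0318). Its other probe sets, at 0.42 and 0.23, did not pass (limma adjusted p = 0.0640 and 0.318). Slc26a6, an apical exchanger of chloride, bicarbonate and oxalate, was at 6.67, 7.08 and 6.54 in young tissue, and its 3 old arrays lay between 6.97 and 7.04. Young replicate 2 was the highest of all 6 arrays for this gene. The difference of 0.24 ± 0.13 did not pass (limma adjusted p = 0.385), and it was 0.40 without young replicate 2 (limma adjusted p = 0.0351). Slc26a6 was called in only 1 of the 6 fits that left out an array. Its differences there ran from 0.13 to 0.40, with limma adjusted p of up to 0.728. Slc26a5, which encodes prestin, the motor protein of outer hair cells, was at 4.16 to 4.58 over the 6 arrays, and the outer hair cell markers Myo7a and Pou4f3 did not pass either. Slc26a7 varied within both ages, from 10.66 to 11.53 in young and from 10.50 to 11.34 in old arrays, and its interval of -0.59 to 0.61 left the difference poorly measured.

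Promoter windows are shown for 4 of the called genes: Slc22a2, which rose, and Slc38a4, Slc4a10 and Slc4a4, which fell. They come from the 6 called members with the smallest p, of which Slc4a1 and Slc26a2 are not reported here. Slc22a2 is thus the only gene shown that rose. Each is the 250 bases before the outermost start that RefSeq lists, on build GRCm38.p6, written 5′ to 3′ in the direction of the gene. Capitals mark matches on either strand to any of 7 motifs. The letters TATAAA stand for the TATA box of core promoters. Another promoter element, bound by the factor NF-Y, has the letters CCAAT. The GC box of Sp1 factors was searched as GGGCGG. The E-box of bHLH factors was searched as CACGTG. For the AP-1 factors Fos and Jun the letters were TGANTCA. The cAMP response element was searched as TGACGTCA. For GATA factors the letters were AGATAA. The matches in the windows shown do not overlap each other.
Slc22a2 (chr17:12583939-12584188, plus strand): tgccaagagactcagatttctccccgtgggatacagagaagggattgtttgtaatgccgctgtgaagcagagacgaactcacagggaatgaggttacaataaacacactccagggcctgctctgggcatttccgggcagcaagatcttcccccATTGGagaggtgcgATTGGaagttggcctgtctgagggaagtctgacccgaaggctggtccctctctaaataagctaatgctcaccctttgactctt
Slc38a4 (chr15:97055957-97056206, minus strand): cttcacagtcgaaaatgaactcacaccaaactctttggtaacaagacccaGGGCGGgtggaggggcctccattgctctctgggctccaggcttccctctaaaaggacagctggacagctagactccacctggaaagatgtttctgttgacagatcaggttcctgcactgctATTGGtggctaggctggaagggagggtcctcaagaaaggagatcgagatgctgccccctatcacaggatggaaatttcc
Slc4a10 (chr2:62046265-62046514, plus strand): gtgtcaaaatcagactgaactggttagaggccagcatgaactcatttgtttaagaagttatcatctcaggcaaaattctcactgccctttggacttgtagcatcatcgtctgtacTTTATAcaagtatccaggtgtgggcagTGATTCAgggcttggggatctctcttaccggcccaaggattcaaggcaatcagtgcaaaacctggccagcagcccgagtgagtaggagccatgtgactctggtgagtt
Slc4a4 (chr5:88887010-88887259, plus strand): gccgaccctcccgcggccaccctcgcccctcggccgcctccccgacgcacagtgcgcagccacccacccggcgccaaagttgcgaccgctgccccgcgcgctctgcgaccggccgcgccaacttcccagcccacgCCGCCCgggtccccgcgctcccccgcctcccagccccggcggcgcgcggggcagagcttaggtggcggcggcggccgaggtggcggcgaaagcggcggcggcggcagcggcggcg
Slc22a2 held 2 CCAAT boxes on the opposite strand, at 97 to 93 and 83 to 79 bases before the start. A CCAAT box was present in 34.5% of 27025 windows of the same length. Slc38a4 held a CCAAT box and a GC box, and Slc4a4 a GC box, which 32.9% of windows had. Slc4a10 held the letters of a TATA box on the opposite strand, 135 to 130 bases before the start, and of an AP-1 site 108 to 102 bases before it. The TATA letters were in 13% and the AP-1 letters in 6.87% of windows. The window of Slc4a4 was 82% G and C, against 51.6% for Slc22a2, 52.8% for Slc38a4, 47.6% for Slc4a10 and a median of 52% over all windows. A match is a description of letters and not evidence of binding. RefSeq listed 1 start for Slc22a2, 3 for Slc38a4 and 2 each for Slc4a10 and Slc4a4, and which of them is used in the lateral wall was not measured.

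Of 7 Slc9a sodium/proton exchangers 0 passed, and 2 had a limma p under 0.05 before adjustment. Slc9a2, an exchanger of epithelial membranes, was nearest to the threshold. It was at 8.22, 8.40 and 8.21 in young and 8.68, 8.66 and 8.56 in old tissue, with groups that did not overlap. The difference of 0.36 ± 0.09 had a limma adjusted p of 0.0550. It passed without young replicate 2 (0.0284), without dim probe sets (0.0356), with array weights (0.0273) and with the mean over probe sets of each gene (0.0383). Slc9a2 has 1 probe set, so that mean left its own values unchanged. It did not pass after quantile normalization (0.0512), median centring (0.0577) or cyclic loess (0.0601). Only 1 of the 6 fits that left out an array called it, with limma adjusted p of up to 0.174. Slc9a5 had a difference of -0.31 ± 0.11, also with separate groups (limma adjusted p = 0.171). A dimmer probe set of Slc9a5 overlapped between the ages, with a difference of -0.04. The endosomal and Golgi exchangers Slc9a7, Slc9a8 and Slc9a9 had differences of 0.13, -0.08 and 0.18. A further probe set of Slc9a8 had a difference of -0.68 (limma adjusted p = 0.0300), while its 2 remaining probe sets lay at 0.18 and 0.14, so the probe sets of Slc9a8 disagreed.

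Of 3 Slc8a sodium/calcium exchangers 0 passed, and 1 had a limma unadjusted p under 0.05. Slc8a1 had young values of 4.71, 4.74 and 5.08 and old values of 4.63, 4.57 and 4.43. The groups were separate, at signals under the median probe set, and the difference of -0.30 ± 0.12 did not pass (limma adjusted p = 0.195). The other probe sets of Slc8a1 overlapped between the ages, with differences of -0.15, -0.00 and 0.03. Slc8a3 was at 11.50, 10.91 and 11.03 in young and 10.96, 10.99 and 11.05 in old tissue. Its young replicate 1 was above the other 5 arrays, and the difference was -0.15, or 0.03 without that array.

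Among the carriers of amino acids, Slc38a4 and Slc7a2 fell. Slc38a4, a sodium-coupled carrier of neutral and cationic amino acids that is expressed from the paternal allele, was at 4.74, 5.19 and 4.84 in young and 4.26, 4.18 and 4.16 in old tissue. The old values lay close together below all young ones. The difference was -0.72 ± 0.12, or 1.65-fold lower (limma adjusted p = 0.0153). These signals lay under the median of all probe sets, detection calls were not used here, and a second, dimmer probe set had a difference of -0.13. Of the 8 other Slc38a genes 0 passed. The glutamine carrier Slc38a1 was at 11.33, 11.12 and 11.23 in young and 10.94, 10.99 and 11.03 in old tissue, a difference of -0.24 ± 0.08 with separate groups (limma adjusted p = 0.158). Slc38a2, the SNAT2 carrier that cells raise when amino acids run short, overlapped between the ages, with a difference of -0.07 and an interval of -0.27 to 0.14.

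Of 14 Slc7a genes, 1 fell and 0 rose. Slc7a2, which carries arginine and other cationic amino acids, was at 11.26, 11.04 and 11.06 in young and 10.62, 10.79 and 10.75 in old tissue. Its groups did not overlap, and the difference of -0.40 ± 0.09 passed narrowly (limma adjusted p = 0.0477). Its 3 other probe sets had differences of -0.16, -0.06 and 0.13 and did not pass. The related arginine carrier Slc7a1 had a difference of -0.02 by its brightest probe set, with an interval of -0.23 to 0.19. A second bright probe set of Slc7a1 had separate groups and a difference of -0.38 ± 0.11 that did not pass (limma adjusted p = 0.0963). The bright probe sets of Slc7a1 thus disagreed. Slc7a8, the LAT2 exchanger of neutral amino acids, whose loss has been linked to hearing loss, was at 11.94, 11.45 and 11.41 in young and 11.02, 11.20 and 11.47 in old tissue. These groups overlapped, and the difference of -0.37 ± 0.16 did not pass (limma adjusted p = 0.262). Slc7a11, the cystine carrier that feeds glutathione synthesis, had separate groups, from 5.61 to 5.80 in young and from 5.88 to 6.28 in old arrays, and a difference of 0.33 ± 0.12 that did not pass (limma adjusted p = 0.171).

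The Slc6a family of neurotransmitter, osmolyte and amino acid carriers was the largest with no call. By their brightest probe sets, 0 of its 18 genes had separate groups, where 26.7% of all genes did. A limma unadjusted p under 0.05 was found for 0 of them, and the differences ran from -0.17 to 0.11. Only 7 of the 18 genes lay above the median signal. A dimmer probe set of Slc6a2 had separate groups and a difference of -0.57 that did not pass (limma adjusted p = 0.103). Dimmer probe sets of Slc6a6 (0.16) and Slc6a9 (-0.06) had separate groups too and did not pass. The taurine carrier Slc6a6 was at 10.51, 10.57 and 10.62 in young and 10.60, 10.68 and 10.40 in old tissue, with an interval of -0.22 to 0.21. The creatine carrier Slc6a8 had a difference of 0.11 and the glycine carrier Slc6a9 one of 0.03, with intervals of -0.10 to 0.33 and -0.17 to 0.23. The smallest p of the family belonged to Slc6a16 and the serotonin carrier Slc6a4, with differences of -0.15 and -0.12 (limma adjusted p = 0.435 and 0.477). Slc6a15, a carrier of branched-chain amino acids, was the least precisely measured, with arrays from 6.62 to 7.81.

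Of 11 Slc5a genes 0 passed by limma, with 2 under 0.05 before adjustment. Slc5a1, the sodium/glucose carrier SGLT1, was at 5.79, 5.93 and 5.94 in young and 6.45, 6.09 and 6.46 in old tissue. All old arrays were above the young ones, with old replicate 2 nearest to them. The difference of 0.45 ± 0.11 did not pass (limma adjusted p = 0.0654) and was 0.57 without old replicate 2 (limma adjusted p = 0.0296). Only 1 of the 6 fits that left out an array called Slc5a1, with limma adjusted p of up to 0.239. A second probe set of Slc5a1 gave 0.45 as well (limma adjusted p = 0.146). Slc5a11, a carrier of myo-inositol, had a difference of 0.23 ± 0.08 with separate groups (limma adjusted p = 0.138). The osmolyte carrier for myo-inositol Slc5a3 was at 13.71, 13.77 and 13.89 in young and 13.54, 13.73 and 13.75 in old tissue. These overlapped, with a difference of -0.12 and an interval of -0.33 to 0.09.

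The 12 zinc carriers of the Slc39a family held no call and 0 unadjusted p under 0.05 by limma, and all 12 had intervals within 0.5 of 0. Their differences ran from -0.18 to 0.18. Slc39a1, a zinc importer of the plasma membrane, was at 10.69, 10.54 and 10.58 in young and 10.41, 10.48 and 10.38 in old tissue. Its groups were separate, and the difference of -0.18 ± 0.08 did not pass (limma adjusted p = 0.266). Slc39a8, which imports manganese and zinc, had an interval of -0.24 to 0.36 around a difference of 0.06. Slc39a2 had a difference of 0.18 with groups that overlapped (limma adjusted p = 0.490).

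Most of the 7 calls were lost in 5 of the 6 fits that left out an array, and these 5 fits also called fewer genes in all. Slc22a2 was called in all 6 such fits and Slc38a4 in 4 of 6, the exceptions being those without young replicate 3 and without old replicate 3. Of the 6 fits, the one without young replicate 2 alone called Slc4a1, Slc4a10, Slc26a2 and Slc7a2, and the one without old replicate 2 alone called Slc4a4. Their limma adjusted p reached 0.0914, 0.131, 0.139, 0.154 and 0.151, while each kept its direction in all 6 fits. Leaving out young replicate 1, young replicate 3, old replicate 1, old replicate 2 or old replicate 3 left 2, 1, 2, 4 and 1 members called. In those fits 2.19%, 1.47%, 2.08%, 2.14% and 1.25% of all genes were called. Without young replicate 2, 9 members were called, 6 of them among the 7, beside 8.35% of all genes.

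**Figure D3:**
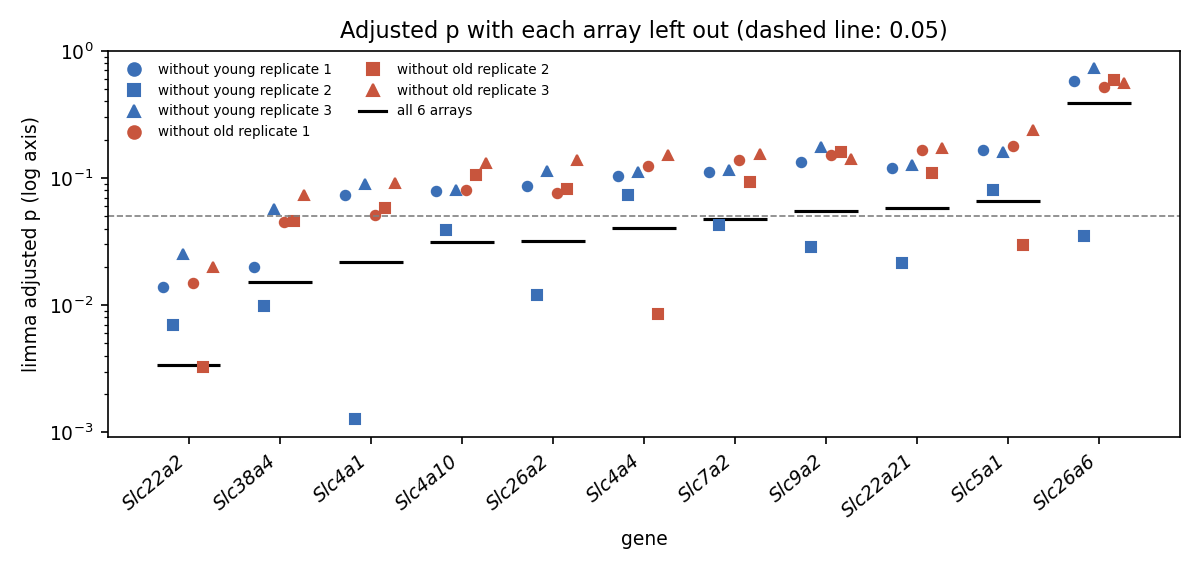
Limma adjusted p (log axis) of the 11 carrier genes that passed in at least 1 fit, with all 6 arrays (black bar) and with each array left out (blue, a young array; red, an old array). Slc22a2 stays below the dashed line at 0.05 in every fit, and the bars of Slc4a4 and Slc7a2, at 0.0405 and 0.0477, lie just under it.

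Probe sets of the same gene often differed. The 113 genes had 214 probe sets, and 59 genes had more than 1. Of 12 other probe sets of called genes, 11 had a difference of the same sign and 1, that of Slc4a1, was called. Averaged over all probe sets of a gene, the differences of Slc26a2, Slc38a4, Slc4a4 and Slc7a2 were 0.37, -0.43, -0.26 and -0.12 (limma adjusted p = 0.0616, 0.0506, 0.103 and 0.366 over genes). Of all 101 other probe sets of members, 1 was called higher and 4 lower, beside 2119 called of all 45037 probe sets. Among genes not called by their brightest probe set, a dimmer probe set was lower for Slc22a12 (-0.45) and Slc9a8 (-0.68) and higher for Slc38a9 (0.54). The remaining probe sets of Slc38a9 had differences of -0.01 to 0.23 and did not pass. For Slc7a6, which carries cationic and neutral amino acids, 1 probe set fell by 0.37 (limma adjusted p = 0.0393) and the other had a difference of 0.05. These 4 were chosen after their values were seen.

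**Figure D4:**
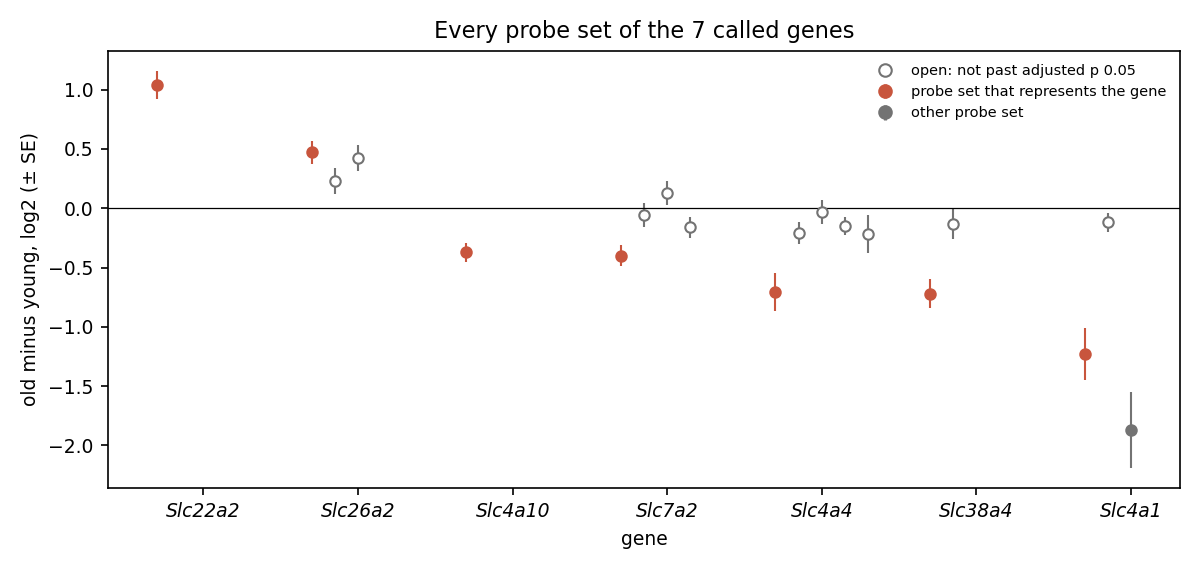
Old minus young difference in log2 signal ± SE for every probe set of the 7 called genes (red, the probe set that represents the gene; grey, other probe sets; open, not past adjusted p 0.05). Slc22a2 and Slc4a10 have a single probe set, and 1 other probe set of Slc4a1 is also past the threshold.

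Partner genes were counted from lists that hold no member and were written with earlier results known. The counts here and in the next paragraph stand beside 4.78% of all genes called. Among genes above the median signal that share was 6.38%. Of 24 other amino acid carriers and heavy chains, 1 rose and 2 fell. Slc43a3, a purine base carrier related to amino acid carriers, and Slc36a4 fell, at -0.84 and -0.51, and Slc36a1, a lysosomal proton-coupled carrier, rose by 0.55 (limma adjusted p = 0.00343, 0.0357 and 0.0192). Slc3a2, the heavy chain that Slc7a light chains need at the membrane, had separate groups and a difference of -0.29 ± 0.08 that did not pass (limma adjusted p = 0.0891). Of 29 genes of the amino acid response, 3 fell and 0 rose, with a median of -0.02. The called ones with the smallest p were Ddit4 (-1.82) and Cebpb (-1.42), an inhibitor of mTORC1 and a transcription factor (limma adjusted p = 0.000990 and 0.00110). The central factor Atf4 and its target Asns, asparagine synthetase, had differences of 0.10 and 0.17 and did not pass.

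Of 15 zinc handling genes, the metallothioneins Mt2 and Mt1, which bind zinc, fell, at -1.51 and -0.85 (limma adjusted p = 0.000927 and 0.00319), and 0 of 10 zinc exporters of the Slc30a family were called. Of 16 measured exchanger partners and pH regulators, 3 fell and 0 rose. The difference of Sgk1, a kinase that raises carrier activity, was -0.57, and that of the membrane linker Ezr -0.42 (limma adjusted p = 0.00751 and 0.0319). Of 14 calcium extrusion genes 0 passed by limma, and 2 had an unadjusted p under 0.05. Of 20 organic ion and drug carriers, 1 rose and 3 fell. The steroid sulfate carrier Slc10a6 and Slco1b2 fell, at -1.78 and -0.56, and Slco2b1 rose by 0.62 (limma adjusted p = 0.000985, 0.0139 and 0.00634). Of 6 measured genes of the osmolyte response, which shares Sgk1 with the list of exchanger partners, 2 fell, with the water channel Aqp1 at -0.88 (limma adjusted p = 0.00350).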

How the data were processed

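Total RNA of 6 dissected lateral walls or pools was turned into biotin-labelled cRNA with an IVT kit and hybridised to Affymetrix mouse arrays, per the labels' protocols. The values used are the log2 signals per probe set that the authors deposited as a value table, one column an array, running from 2.66 to 14.76. Expression Console, RMA and MAS5 stand in the submitters' processing notes, which do not say which of them made this table. Depth has no meaning for arrays, and their number limits the precision.

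Of 45101 probe sets, 64 controls were left out, and limma 3.58.1 (R 4.3.3; lmFit and eBayes, age as the only term, Benjamini-Hochberg) was fitted to the other 45037. Symbols come from GEO's platform annotation: 34945 probe sets had 1, 932 several and 9160 none, and none was named from several. A gene was represented by the probe set with the highest mean over all 6 arrays. Reading the rule so that symbols ending in a letter count gives 117 members. Genes named are every called member, the 2 smallest p-values of each family and a list fixed by role, of which 3 are not analysed here. Genes outside this rule (Slc6a2, Slc6a15, Slc9a7, Slc9a8, Slc9a9, Slc22a12, Slc26a7, Slc38a9 and Slc7a6) were picked with their values in view. Members and lists were chosen with earlier results of these data known. Promoters are from RefSeq (GRCm38.p6), which held 85 of the 113 members.

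The fit was tested on simulated data: with 200 of 45037 probe sets changed, it called 25.2% of changes of 0.5, 81.2% of 1 and 98.4% of 2 on the log2 scale, with 4.16% of calls false (10 draws). Alternatives were other normalizations, a filter on dim probe sets, array weights, a variance trend, a replicate block, a stricter threshold, averaging over all probe sets of a gene, adjustment over genes, the other reading of the rule, and each array left out.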

Additional observations from a re-analysis of the deposited data

How the results depend on the processing

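The 7 calls (2 higher, 5 lower) were the same genes after quantile normalization, median centring, cyclic loess, adjustment over genes and the reading of the rule that counts symbols ending in a letter. All 110 differences computed for these 7 genes under the alternatives kept their sign. With probe sets under the median signal left out, 59 members could be tested, 3 were called higher, with Slc9a2 added, and 3 lower, since Slc4a1 and Slc38a4 were among those left out. Array weights gave 4 higher and 7 lower, adding Slc5a1, Slc9a2, Slc8a1 and Slc22a21, and a variance trend with robust estimates added Slc22a21. At adjusted p 0.01, 1 was higher (Slc22a2) and 0 lower. Averaging over all probe sets of a gene gave 2 higher, with Slc9a2 added and Slc26a2 lost, and 2 lower. Leaving out each array in turn gave 1 to 4 higher, 0 to 5 lower and a median over members of -0.02 to 0.03. The cause of these changes was not tested.

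With the replicate number as a replicate block, 1 member was called higher and 3 lower. Slc26a2, Slc4a10 and Slc7a2 were not called (limma adjusted p = 0.0514, 0.0546 and 0.0838). Same-numbered arrays had correlations of deviations of 0.14, 0.08 and 0.01, so the numbers were not taken as pairs.

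At 3 arrays a group, changes of 0.5 on the log2 scale were mostly missed in simulated data (25.2% called). Those data had 200 of 45037 probe sets changed, whereas 2119 were called in the real data. The Benjamini-Hochberg cutoff depends on how many probe sets change, so the share missed in the real data was not measured. Most differences of the carrier genes were smaller than 0.5.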

Other observations

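Of 4 relatives whose symbols end in a letter, 0 were called. Slc6a20a, a carrier of proline and other imino acids, was at 4.57, 4.99 and 4.94 in young and 5.01, 5.96 and 5.49 in old tissue. Its groups did not overlap, with a difference of 0.65 ± 0.22 (limma adjusted p = 0.143), larger than any of the 18 numbered Slc6a genes. Its neighbour in name, Slc6a20b, had a difference of -0.10, and the glucose carrier relatives Slc5a4a and Slc5a4b had differences of 0.19 and 0.05.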
